A study of Mus musculus with 4 samples.

Results

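Timp1, Timp2, Timp3 and Timp4, the tissue inhibitors of metalloproteinases, were followed in single cells of mouse intervertebral discs 7 days after a needle puncture. The 4 genes were taken by symbol from the 32285 genes of the gene lists, and their molecules were counted in 3846 cell barcodes with at least 250 detected genes. Of these barcodes, 3223 were kept. Every mouse was a wildtype female C57BL/6 aged 12 weeks, and no group carried a transgene. The injured group held tail discs punctured on both sides with a 30G needle, and the control group held unpunctured discs that the same mice had further down the tail. Injury and tail level therefore cannot be told apart. Per the labels, discs of 6 mice were pooled to 30 discs per group, and cells were snap frozen before a viability sort. Each group was sequenced in 2 rounds, which gives 4 libraries: control round 1, control round 2, injured round 1 and injured round 2. The labels do not say whether the rounds used separate mice, so the p-values measure only the spread between these libraries, which may be technical.

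The TIMP proteins are small secreted inhibitors that plug the active site of matrix metalloproteinases (MMPs), the enzymes that cut collagens, proteoglycans and other matrix proteins. Timp3 stays bound to the matrix and also blocks Adam17 and the aggrecan-cutting enzymes Adamts4 and Adamts5. Timp2 can form a complex with the membrane protease Mmp14 in which the proform of Mmp2 is activated. Timp1 is known as the member most often induced by cytokines and growth factors, and Timp4 as the member with the most restricted expression. In the disc, a proteoglycan-rich nucleus pulposus is held by the collagen lamellae of the annulus fibrosus, and the balance of proteases and inhibitors bears on the turnover of both.

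In the mouse genome (GRCm38, GENCODE M21 annotation) Timp1 lies at chrX:20870166-20874735 on the plus strand, and Timp2 at chr11:118301069-118355740 on the minus strand. Timp3 lies at chr10:86300372-86349506 on the plus strand, and Timp4 at chr6:115241892-115252205 on the minus strand. Timp1, Timp3 and Timp4 each lie inside a synapsin gene that runs on the opposite strand (Syn1, Syn3 and Syn2 in that order), and Timp2 lies in none. The bases before the start of Timp1 and Timp4 are shown because these genes stood at opposite ends of the injury comparison below. Both are read 5′ to 3′ on the gene's strand from RefSeq (GRCm38.p6), 250 bases each, and capitals mark a GC box.
Timp1, chrX:20869916-20870165: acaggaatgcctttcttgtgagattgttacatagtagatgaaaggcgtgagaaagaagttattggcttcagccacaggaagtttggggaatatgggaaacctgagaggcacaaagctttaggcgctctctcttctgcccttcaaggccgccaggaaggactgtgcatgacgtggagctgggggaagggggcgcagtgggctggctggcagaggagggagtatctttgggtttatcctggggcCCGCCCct
Timp4, chr6:115252206-115252455: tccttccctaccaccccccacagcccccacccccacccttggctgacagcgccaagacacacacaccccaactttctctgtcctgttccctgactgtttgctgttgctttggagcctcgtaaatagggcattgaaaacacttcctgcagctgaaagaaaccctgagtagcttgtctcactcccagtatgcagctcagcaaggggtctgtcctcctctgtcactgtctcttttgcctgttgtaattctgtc
Motifs were searched on both strands. They were the AP-1 site, spelled TGANTCA, a variant of the same site, spelled TGAGTAA, the TATA box, spelled TATAAA, and the GC box, spelled GGGCGG. The stretches shown held a single match, the GC box of Timp1, whose first base is at position -8 from the start. In windows of the same 250 bases before 32851 RefSeq starts, 6.75% held the AP-1 site, 2.25% its variant, 12.4% the TATA box and 32.7% the GC box. The 250 bases before the start held 6 CpG pairs for Timp1, 21 for Timp2, 18 for Timp3 and 2 for Timp4.

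The control round 1 list holds 444 barcodes, and 115 of them reappear in injured round 1 with a similar number of molecules (0.631 to 0.905 times as many) and 104 with 29.2 to 44.8 times as many. Control round 1 cells with such barcodes were left out, and so were injured round 1 cells with a similar number of molecules. Whole clusters were left out where most control round 1 cells had barcodes with a similar number of molecules. Control round 2 lost cells only with these clusters, and 476 of its 856 cells were kept. Calls of the TIMP genes that changed with these cells and clusters kept, called shared barcodes below, are given beside the result. Whether barcodes of round 2 were shared was not checked. Cells were grouped by clustering on 2000 variable genes, none of them a TIMP gene, and named from marker genes. The disc matrix cells comprise inner annulus or cartilage-like, outer annulus or fibroblast-like and nucleus pulposus-like clusters, and a cluster led by Myoc and Angptl7 that had as many inner as outer annulus markers. They numbered 171 and 381 cells in the control libraries and 524 and 1445 in the injured libraries (rounds 1 and 2), with medians of 4182 and 3944 molecules (UMIs) per cell against 9125 and 5629. The makeup of these cells differed between groups: a cluster led by Cnmd and Grem1 was 43.9% and 54.9% of control disc cells and 5.15% and 5.33% of injured ones.

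In the disc matrix cells as a whole, Timp1 and Timp3 were higher and Timp2 and Timp4 lower in both injured libraries than in both control libraries. Levels are given as CPM, the UMIs of a gene scaled to 1e+06 UMIs of the summed cells. Because the method reads 1 end of each transcript, levels of different genes need no length correction. Fewer cells that express a gene and less RNA per cell cannot be told apart in these sums. Timp1 stood at 260 CPM in control round 1 and 194 CPM in control round 2, against 1232 CPM in injured round 1 and 1575 CPM in injured round 2. The groups were far apart, and the mean was 227 ± 47.2 CPM in control and 1404 ± 243 CPM in injured libraries (SD, n = 2 each), a 6.18-fold higher level. Timp4 was lower by a similar factor in the other direction, 74.3 and 91.4 CPM in the controls and 10.6 and 8.88 CPM in the injured libraries. Its means were 82.8 ± 12.1 and 9.76 ± 1.25 CPM (SD, n = 2 each), an 8.48-fold lower level.

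Timp2, the most abundant member in the controls, was at 1482 and 1480 CPM there and at 479 and 530 CPM in the injured libraries. The 2 control libraries were almost equal, and the mean level was 2.93-fold lower after injury, 505 ± 35.8 CPM against 1481 ± 1.31 CPM (SD, n = 2 each). Timp3 was at 671 and 959 CPM in the controls and at 2827 and 1467 CPM in the injured libraries. The groups did not overlap, but the 2 injured libraries were farther apart than the group means (815 ± 204 against 2147 ± 961 CPM, SD, n = 2 each).

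**Figure D1:**
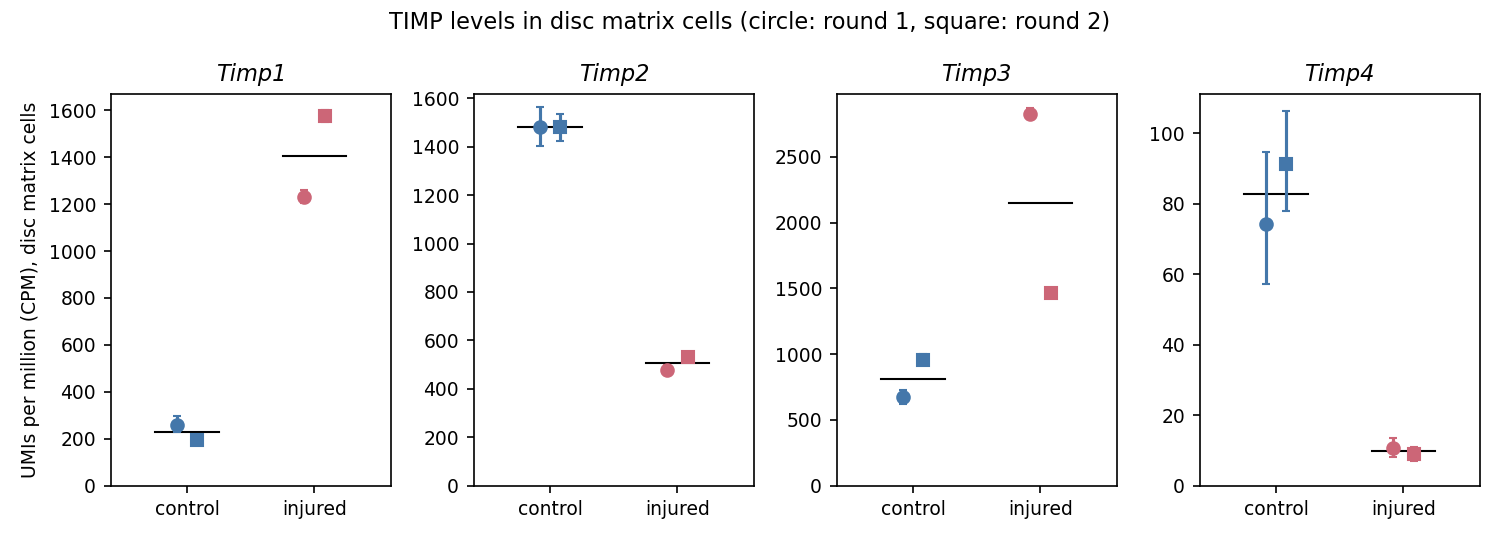
Level of each TIMP gene in disc matrix cells, in CPM, by library. Points are libraries with exact 95% Poisson intervals (counting error only), lines are group means. Timp1 is at 194 to 260 CPM in control and 1232 to 1575 CPM in injured libraries, Timp2 at 1480 to 1482 and 479 to 530 CPM, and no gene's control points overlap its injured points.

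All 4 genes were thus without overlap between the groups, which 37.7% of the 14043 genes with at least 10 counts also were. With edgeR's quasi-likelihood test over 11193 genes none of the 4 passed an adjusted p (Benjamini-Hochberg) of 0.05, and 0.0179% of all genes did. The log2 fold change of Timp1 was 2.68 (SE 0.42, adjusted p = 0.149) and that of Timp4 -3.03 (SE 0.37, adjusted p = 0.0773). For Timp2 it was -1.50 (SE 0.36, adjusted p = 0.312) and for Timp3 1.45 (SE 0.45, adjusted p = 0.457). With the round as a block, 1.27% of genes passed, among them Timp1 (2.69, adjusted p = 0.0237) and Timp4 (-3.04, adjusted p = 0.0115) but not Timp2 (adjusted p = 0.0582) or Timp3 (adjusted p = 0.135). With the shared barcodes kept, Timp2 passed that fit as well (adjusted p = 0.0283). That fit leaves 1 residual degree of freedom per gene, so its p-values lean on a spread shared across genes. When the clusters led by chemokine, protease and acute-phase genes were left out, a choice made after seeing the data, Timp1 (2.83, adjusted p = 0.0481) and Timp4 (-3.68, adjusted p = 0.0251) passed without a block, as did 0.228% of genes. The Timp1 call was lost with the shared barcodes kept (adjusted p = 0.16), with at least 500 genes per cell (0.0681), under 10% mitochondrial UMIs (0.0563), with the highest doublet scores left out (0.0564) and without control round 2 (0.129), while the Timp4 call was kept in each. With the round as a block and the same clusters left out, Timp1 (adjusted p = 0.00559), Timp2 (0.0328) and Timp4 (0.00258) passed, as did 3.08% of genes. Without the Myoc Angptl7 cluster, also chosen after seeing the data, Timp4 passed (-3.33, adjusted p = 0.0289), as did 0.151% of genes, but not with the shared barcodes kept (adjusted p = 0.0536). With the block and without that cluster, Timp1 (adjusted p = 0.00347), Timp2 (0.0358) and Timp4 (0.00021) passed, as did 3.72% of genes. Timp2 no longer passed this fit with the shared barcodes kept.

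Marker levels and RNA quality differed between the groups as well. Cells with under 10% mitochondrial UMIs were 143 of 171 and 210 of 381 disc matrix cells in the control and 503 of 524 and 1290 of 1445 in the injured libraries. In the disc matrix cells, the summed level of the 17 outer annulus markers was 10935 and 11380 CPM in the control and 20217 and 29452 CPM in the injured libraries, and that of the 10 nucleus pulposus markers 1881 and 1259 against 789 and 483 CPM. The 18 inner annulus markers summed to 16873 and 14073 against 20553 and 18841 CPM, the 7 osteoblast markers to 17887 and 12195 against 11641 and 9926 CPM, and the 7 Schwann cell markers to 466 and 608 against 385 and 447 CPM. These 5 lists did not overlap between the groups, nor did the epithelial, B cell and adipocyte lists, at 50.4 CPM or below. The 15 macrophage markers summed to 56.0 and 29.2 CPM in the control and 64.4 and 55.3 CPM in the injured libraries, with Adgre1 at 0 in all 4 libraries. With the shared barcodes kept, the control means of Timp1 to Timp4 were 288, 1440, 917 and 81.1 CPM, and the groups still did not overlap. The part of the marker and quality differences in the TIMP values was not tested.

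Inner annulus or cartilage-like cells, named from cartilage genes such as Sox9, Col2a1, Acan and Comp, made up most of the disc matrix cells (100 and 253 control cells, 486 and 1038 injured cells). Timp4 fell there, from 101 and 120 CPM in the controls to 10.3 and 12.4 CPM in the injured libraries, and its log2 fold change of -3.13 (SE 0.41) passed edgeR's test (adjusted p = 0.0397), as did 0.139% of the 10829 genes tested. The call was lost with the shared barcodes kept (adjusted p = 0.0529), without a filter on low counts (adjusted p = 0.195) and without injured round 1 (adjusted p = 0.0568). In the last case the log2 fold change was -2.92, close to the value from all 4 libraries.

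Timp1 in the inner class was at 349 and 264 CPM in the controls and 1279 and 1500 CPM in the injured libraries (log2 fold change 2.33, SE 0.42, adjusted p = 0.116). Timp2 was at 1329 and 1347 CPM against 450 and 440 CPM (-1.44, SE 0.38, adjusted p = 0.2999). Timp3 was at 631 and 1209 CPM against 2958 and 2033 CPM (1.58, SE 0.46, adjusted p = 0.357). None of the 3 passed edgeR's test without a block, although their groups did not overlap, as for 38.2% of genes. With the round as a block 7.87% of genes passed, and so did all 4 members: Timp1 (adjusted p = 3.46e-06), Timp2 (0.00244), Timp3 (0.00455) and Timp4 (6.28e-11).

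Over all kept cells the same order held. The log2 fold changes were 2.65 for Timp1 (adjusted p = 0.142), -1.47 for Timp2 (0.331), 1.32 for Timp3 (0.497) and -3.11 for Timp4 (0.0707) in edgeR's test, in which 0.0171% of 11666 genes passed. With the round as a block all 4 passed (adjusted p = 1.34e-08, 0.00115, 0.0138 and 2.84e-14), in a fit that called 10.1% of genes. With the shared barcodes kept, Timp3 no longer passed that fit (adjusted p = 0.0535), and without a block Timp4 did (0.0483). The block fits leave 1 residual degree of freedom per gene and lean on a spread shared across genes. The weight of that spread (median prior degrees of freedom) was 83.7 over all cells and 52.1 in the inner class, against 5.85 in the disc matrix cells. The smaller p-values over all cells and in the inner class are therefore no measure of a stronger change.

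Outer annulus or fibroblast-like cells, marked by Col1a1, Col3a1, Aspn and Postn, were scarce in the controls, with 6 and 7 cells against 15 and 322 injured cells. Timp1 rose in them. It had 0 of 68377 UMIs in the control cells, which allows up to 43.9 CPM (3 counts over the group), and was at 754 CPM in injured round 1 and 2010 CPM in injured round 2. The level was at least 43.6-fold higher in the injured libraries pooled (edgeR adjusted p = 0.0185, with 0.303% of 2307 genes called). The bound was 17.2-fold without injured round 2, 19.0-fold without control round 2 and 24.6-fold without control round 1.

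Timp2 in the outer class was at 1408 and 2439 CPM in the controls and at 638 and 639 CPM in the injured libraries (log2 fold change -1.58, SE 0.65, adjusted p = 0.385). Like Timp1, its groups did not overlap, as for 43.3% of genes. Timp3 overlapped between groups, at 402 and 259 CPM against 543 and 212 CPM. Timp4 had no count in this class in any library. In injured round 2, with 2781353 UMIs, this allows at most 1.08 CPM, below the 12.4 CPM of the inner class in the same library.

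The injury effect was compared directly between the outer and inner class with a class-by-injury term in edgeR. It differed for Timp1 (adjusted p = 0.000176, 0.405% of 9139 genes called), for which no fold is given because the control outer cells had no count. The call was lost without control round 2 (adjusted p = 0.133), without injured round 1 (0.0729) and without injured round 2 (0.401). For Timp2 the outer effect was higher than the inner by 0.36 on the log2 scale (SE 0.59, adjusted p = 0.946) and for Timp3 lower by a difference of -1.10 (SE 0.64, adjusted p = 0.837). Neither passed, with 6 and 7 control cells in the outer class.

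Since the makeup of the disc matrix cells differed between groups, the members were also compared inside 2 clusters with at least 15 cells in every library, chosen after the data were seen. In the Cnmd Grem1 cluster (75 and 209 control cells, 27 and 77 injured cells) Timp1 was at 283 and 35.6 CPM in the controls and 548 and 132 CPM in the injured libraries. These groups overlapped, and within each round the injured library was higher. The log2 fold change of Timp1 there was 3.10 without control round 1, 0.32 without control round 2 and -0.10 without injured round 1. Timp2 was at 1322 and 1643 CPM against 891 and 706 CPM, and Timp3 at 720 and 483 CPM against 1057.5 and 798 CPM. Timp4 was at 132 and 160 CPM against 99.7 and 72.2 CPM, a 1.70-fold difference against 9.72-fold in the inner class as a whole.

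In the Cnmd Grem1 cluster edgeR called 0 of 4551 genes (0%), with 71 at an unadjusted p under 0.05. Its log2 fold changes were 1.11 for Timp1, -0.91 for Timp2, 0.63 for Timp3 and -0.79 for Timp4, each with an adjusted p of 1.00. DESeq2 called 0 genes there. With the round as a block 0.923% of genes passed and none of the 4 members did (Timp1 adjusted p = 0.0659). Timp2, Timp3 and Timp4 were without overlap between the groups, as 26.1% of genes were.

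In the Myoc Angptl7 cluster (36 and 50 control cells, 18 and 84 injured cells) Timp1 was at 100 and 33.8 CPM in the controls and 145 and 259 CPM in the injured libraries. Timp2 was at 2178 and 2166 CPM against 1462 and 1065 CPM, and Timp3 at 760 and 426 CPM against 1360 and 1033 CPM. Timp4, with 6 to 9 counts per library, overlapped between the groups. For the other 3 members the groups did not overlap, as for 31.9% of genes. Here edgeR called 0 of 3849 genes (0%, 117 at an unadjusted p under 0.05) and DESeq2 4. Timp1 passed with the round as a block (log2 fold change 1.98, SE 0.40, adjusted p = 0.000341, 0.961% of genes called) and not without it (1.88, SE 0.57, adjusted p = 0.873). In the block fit here the median prior degrees of freedom were infinite, so its p-values rest on a spread shared by all genes. Without a block and with 1 library left out, the log2 fold change of Timp1 ran from 1.24 to 2.83 and was 2.30 without injured round 1. In the 3 libraries that list them, barcodes with 10 to 100 UMIs, too few for a cell, had higher Timp1 levels than this cluster (35.4 CPM in control round 2, 174 and 280 CPM in the injured libraries). Control round 1 has no such value, and the part of free RNA in this call was not tested.

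**Figure D2:**
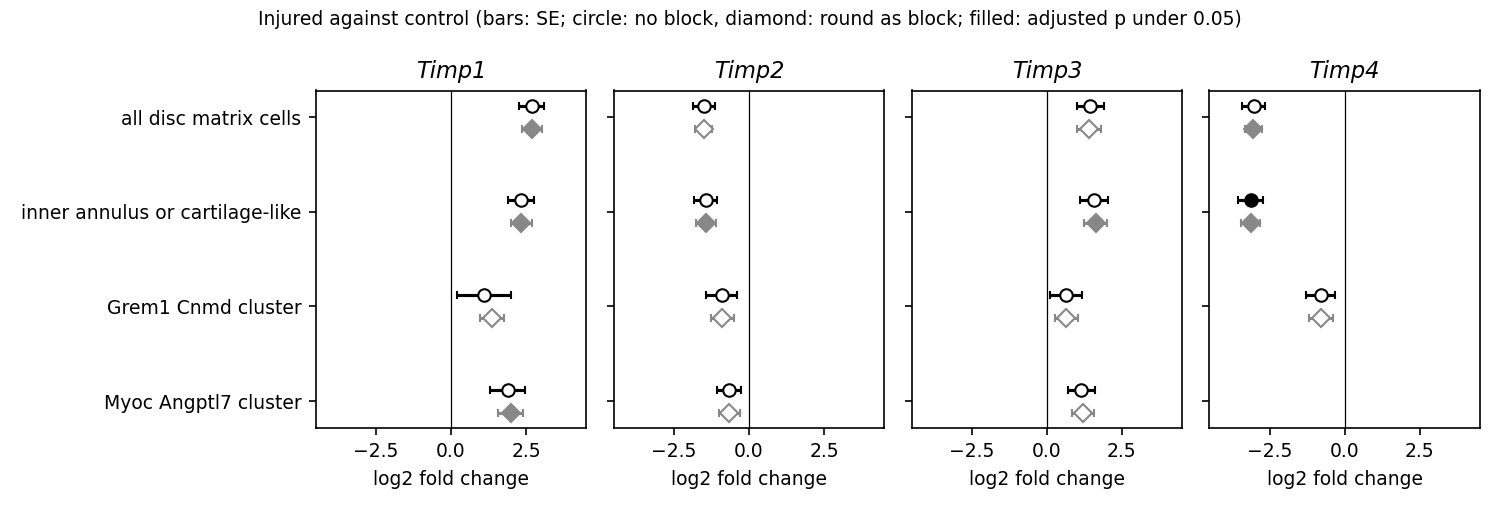
Log2 fold change of each TIMP gene, injured against control, in all disc matrix cells, the inner class and 2 clusters. Bars are standard errors, circles the fit without and diamonds the fit with the round as a block, and filled symbols have an adjusted p under 0.05. Timp4 is at -3.13 in the inner class and -0.79 in the Cnmd Grem1 cluster, and it was not tested in the Myoc Angptl7 cluster.

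The remaining inner clusters were mostly injured cells. Timp3 was at 3842 and 3002 CPM in the injured cells of the cluster led by Il11 and Npy, at 2251 and 2238 CPM in that led by Gdf5 and Rgcc, and at 2074 and 1975 CPM in that led by M1ap and Fmod. Timp1 was at 878 and 1763, 748 and 1246, and 1577 and 1679 CPM in the same clusters. Timp4 was at 15.6 CPM or below in the injured cells of these 3 clusters, at 29.4 CPM in injured round 2 in the cluster led by Saa3 and Saa1, and at 12.8 and 50.1 CPM in that led by Mmp12 and Mmp3, against 53.8 CPM in control round 1. These clusters held few control cells, 17 and 15 in control round 2 for the Gdf5 Rgcc and M1ap Fmod clusters. In those 17 cells Timp1 was at 1279 CPM, Timp2 at 459 CPM and Timp3 at 3144 CPM, levels near or above those of the injured cells of the cluster. In the 15 control cells of the M1ap Fmod cluster Timp1 was at 353 CPM, below the injured cells, Timp2 at 875 CPM, above their 540 and 467 CPM, and Timp3 at 2285 CPM, also above them. In the cluster led by Mmp12 and Mmp3, round 1 gave 21 control and 192 injured cells, with Timp1 at 484 against 1566 CPM, Timp2 at 1359 against 412 CPM and Timp3 at 508 against 2702 CPM.

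The share of each member among all TIMP UMIs does not depend on how libraries are scaled. In the disc matrix cells Timp2 made up 57.0% ± 3.71 of TIMP UMIs in the control and 12.7% ± 3.01 in the injured libraries (SD, n = 2 each). Timp3 was 31.1% ± 5.82 against 51.6% ± 14.98, Timp1 8.79% ± 2.38 against 35.5% ± 12.0 and Timp4 3.17% ± 0.261 against 0.241% ± 0.00977. Timp2 was thus the leading member in both control libraries, Timp3 in injured round 1 and Timp1, just ahead of Timp3, in injured round 2. For each member the exact two-sided permutation test gave p = 0.333, the smallest p that 2 against 2 libraries allow.

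Inside the Cnmd Grem1 cluster Timp2 was 62.3% ± 12.0 against 37.8% ± 4.94 and Timp3 25.05% ± 6.02 against 43.7% ± 4.23. The Myoc Angptl7 cluster gave 76.3% ± 7.67 against 46.8% ± 2.54 for Timp2 and 20.4% ± 6.12 against 44.4% ± 1.09 for Timp3 (SD, n = 2 each). The lower share of Timp2 and the higher share of Timp3 were therefore present in both clusters, each with an exact permutation p of 0.333. For Timp1 the shares overlapped in the Cnmd Grem1 cluster (6.53% ± 7.06 against 14.4% ± 9.45) but not in the Myoc Angptl7 cluster (2.27% ± 1.41 against 7.89% ± 4.32). For Timp4 they overlapped in the Myoc Angptl7 cluster (0.986% ± 0.146 against 0.959% ± 0.693) but not in the Cnmd Grem1 cluster (6.13% ± 1.09 against 4.03% ± 0.274). The total of the 4 members in the disc matrix cells was 2605 ± 167 CPM in the control and 4065 ± 684 CPM in the injured libraries (exact permutation p = 0.333).

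**Figure D3:**
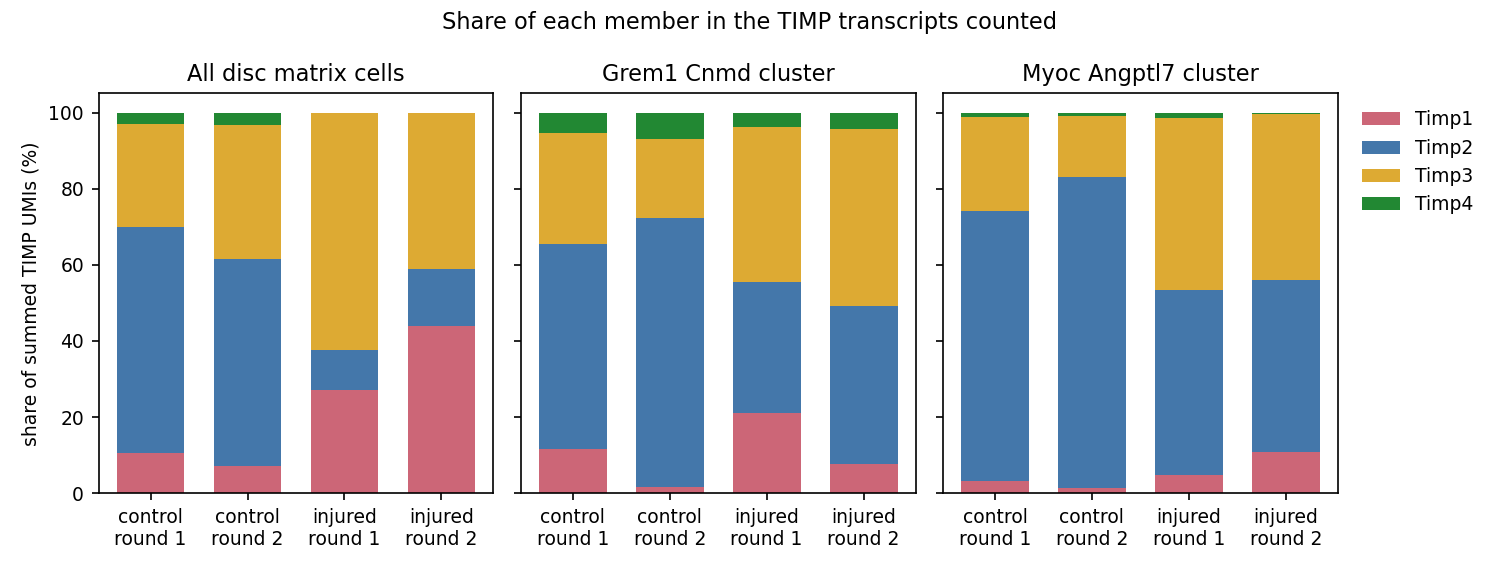
Share of each TIMP gene in the summed TIMP UMIs of each library, in all disc matrix cells, the Cnmd Grem1 cluster and the Myoc Angptl7 cluster. Timp2 (blue) averages 57.0% in control and 12.7% in injured disc matrix cells, and 76.3% and 46.8% in the Myoc Angptl7 cluster.

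The members were also ranked within single cells. Among disc matrix cells with at least 5 TIMP UMIs and no tie, Timp2 was the member with most UMIs in 84 of 113 cells of control round 1 (74.3%) and 171 of 220 of control round 2 (77.7%). In the injured libraries it led in 48 of 484 cells (9.92%) and 142 of 1176 cells (12.1%). Timp3 led in 19.5% of cells in each control library and in 72.1% and 51.0% of injured cells, and Timp1 in 6.19% and 2.27% of control and 18.0% and 36.8% of injured cells. In injured round 2, Timp3 thus led in more cells than Timp1, although Timp1 had the larger sum of UMIs. Timp4 led in 0 or 1 cell per library.

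The share of cells with a UMI depends on depth, so each disc matrix cell was thinned to 500 UMIs, which left out 0 and 7 control and 3 and 3 injured cells. Timp1 was then found in 7.02% and 2.94% of control and 31.9% and 38.7% of injured cells. Timp2 was found in 45.6% and 42.2% of control and 23.99% and 21.1% of injured cells. Timp3 was found in 15.8% and 16.6% of control and 61.2% and 42.7% of injured cells, and Timp4 in 2.92% and 4.81% against 0.768% and 0.485%. Every member's groups were apart, with an exact permutation p of 0.333 each, the smallest that 2 against 2 libraries allow. How many of all genes were apart in this measure was not counted. Without thinning, the Timp2 shares were 84.1% ± 5.05 and 83.2% ± 5.92 (SD, n = 2 each), and the groups overlapped. With the shared barcodes kept, the thinned control means were 14.0% for Timp1 and 27.6% for Timp3, against 4.98% and 16.2% without them. Thinning was 1 random draw per setting, so the draw differed too. In control round 2, whose disc matrix cells were the same in both settings, Timp1 was found in 2.94% and 5.61% of cells. Timp3 was found in 16.6% of them both times. In macrophage-like cells of the injured libraries, thinned alike (median depths 3524 and 3234.5 UMIs before thinning, against 9167 and 5636 in disc matrix cells), Timp1 was found in 2.63% and 4.35% of cells. Timp3 was found in 0 of 38 such cells in round 1, which allows up to 7.89% of cells with a UMI at this thinned depth (1 of 39 had a UMI before thinning), and in 3.26% in round 2. Timp2 was found in 21.1% and 5.43% of them, so in injured round 1 its share in disc matrix cells was near that of macrophage-like cells.

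Levels by cell class were taken from the injured libraries, where 6 classes had at least 10 cells. Timp1 was highest in the inner class (1389 ± 157 CPM) and outer class (1382 ± 888 CPM), which overlapped. It was lower in mural-like cells, the contractile cells of vessel walls (233 ± 93.0 CPM), in the Myoc Angptl7 cluster (202 ± 80.4 CPM), in macrophage-like cells (130 ± 65.7 CPM) and in endothelial-like cells (121 ± 80.8 CPM; SD, n = 2 each). The step from the outer class to mural-like cells was without overlap, and each later neighbour overlapped with the next.

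Timp2 was highest in the Myoc Angptl7 cluster (1263 ± 281 CPM), then in the outer class (638 ± 0.744 CPM) and in mural-like cells (489 ± 78.0 CPM), without overlap between these steps. The inner class (445 ± 6.87 CPM), macrophage-like (356 ± 245 CPM) and endothelial-like cells (269 ± 60.4 CPM; SD, n = 2 each) followed, with overlap from mural-like cells down. Timp3 was highest in the inner class (2495 ± 654 CPM), and overlapped there with mural-like cells (1373 ± 999 CPM) and those with the Myoc Angptl7 cluster (1197 ± 231 CPM). Endothelial-like cells (423 ± 189 CPM) and the outer class (377 ± 234 CPM) came lower and overlapped, and macrophage-like cells (77.9 ± 102 CPM; SD, n = 2 each) stood below all others. Timp4 was at 27.4 ± 23.0 CPM in the Myoc Angptl7 cluster and 11.4 ± 1.51 CPM in the inner class (SD, n = 2 each), with 1 count in mural-like cells and none in endothelial-like, macrophage-like or outer class cells.

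**Figure D4:**
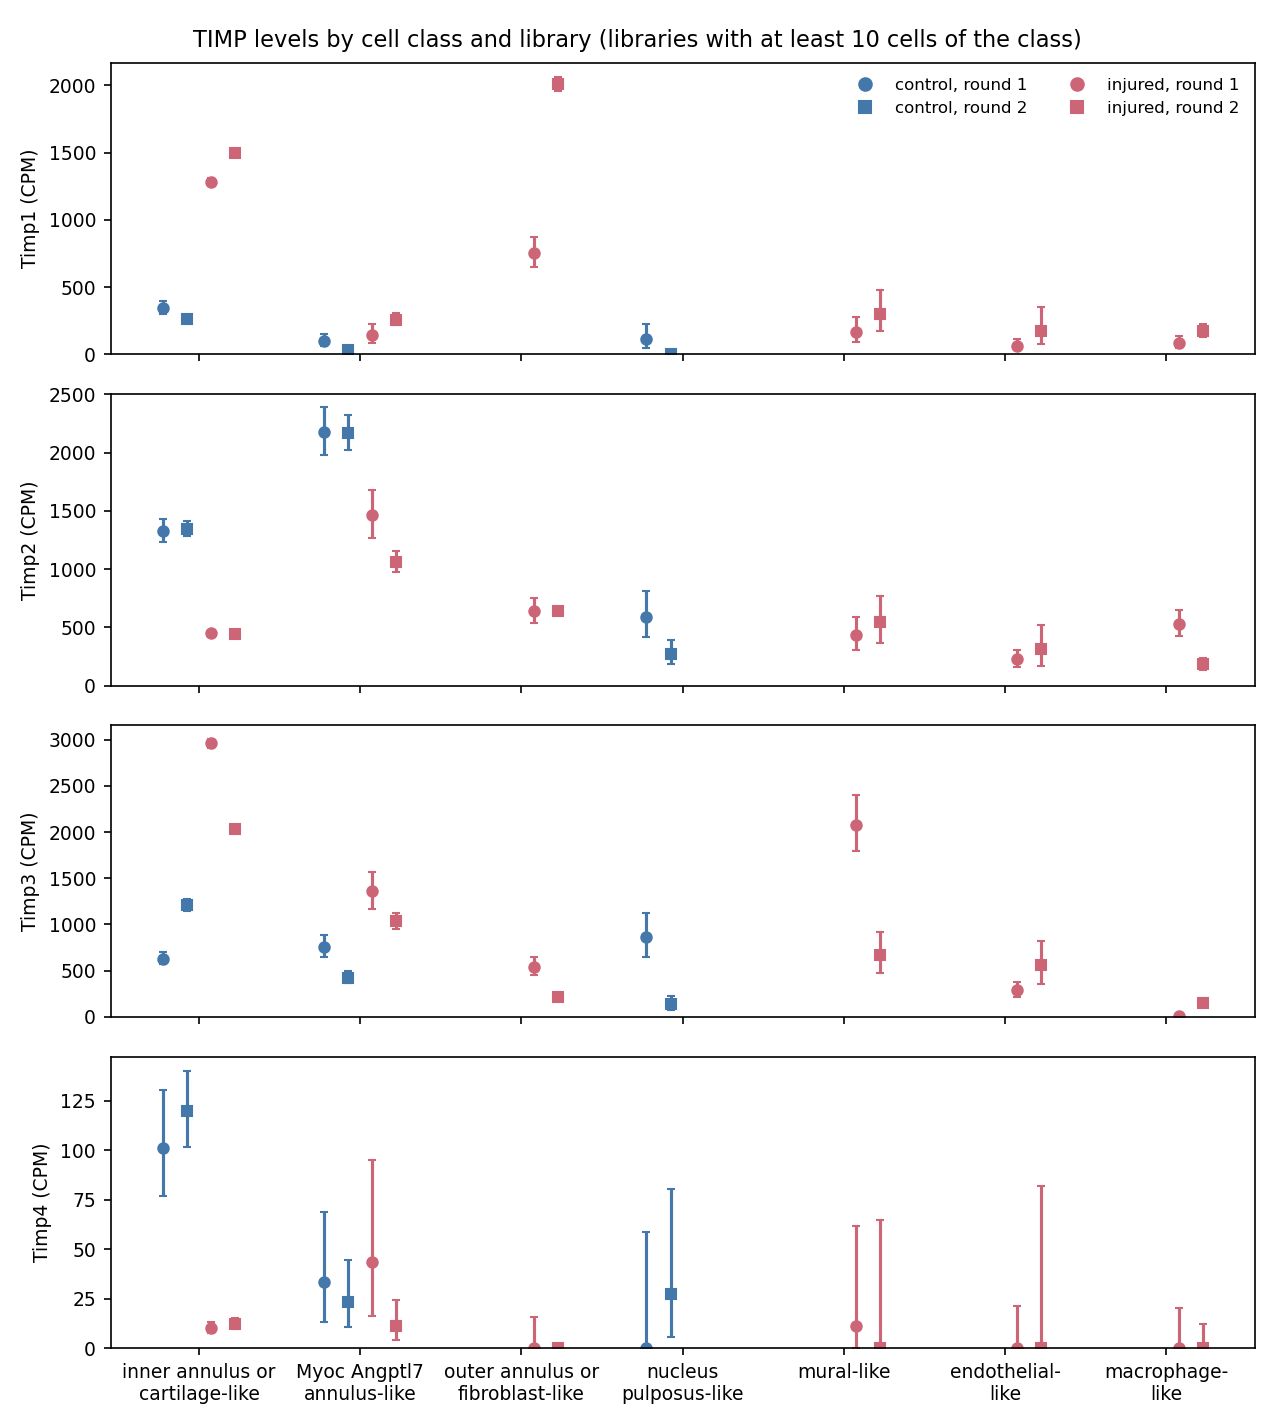
Level of each TIMP gene, in CPM, by cell class and library, for libraries with at least 10 cells of the class. Bars are exact 95% Poisson intervals (counting error only), blue points control and red points injured libraries. In the injured libraries Timp1 is at 754 CPM or above in the inner and outer class and at 298 CPM or below in the other classes shown.

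The controls held too few vascular cells for a test (9 and 7 endothelial-like and mural-like cells against 51 and 36 in the injured libraries). Timp3 was the leading member in them in every library, at 1290 and 1677 CPM in the control and 904 and 618 CPM in the injured libraries. The lower injured values were those of endothelial-like cells (1320 and 1676 CPM against 290 and 557 CPM). Mural-like cells, of which the controls held 1 and 2, overlapped (1006 and 1677 CPM against 2079 and 667 CPM). In nucleus pulposus-like cells, which carry T (brachyury) and Krt19 and had a median mitochondrial share of 46.0%, the control libraries (29 and 71 cells) gave Timp2 at 591 and 276 CPM and Timp3 at 862 and 138 CPM. Timp1 had 7 counts and 0 counts there, and the injured libraries held 5 cells and 1 cell. Macrophage-like cells were at most 3 in a control library, so no comparison was made in them.

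Free RNA was read from barcodes with 10 to 100 UMIs, which control round 1 does not list. In control round 2, injured round 1 and injured round 2 in turn, Timp1 was at 35.4, 174 and 280 CPM there, Timp2 at 178, 202 and 97.0 CPM, Timp3 at 149, 239 and 163 CPM, and Timp4 at 19.99, 26.0 and 11.0 CPM. The Timp1 values of macrophage-like cells (83.5 and 176 CPM) and endothelial-like cells (63.8 and 178 CPM) of the injured libraries lay below these, and so did Timp3 in macrophage-like cells (5.57 and 150 CPM). In the Myoc Angptl7 cluster (145 and 259 CPM) and in mural-like cells (167 and 298 CPM) Timp1 was about level with the low-UMI barcodes. The part of free RNA in these values was not tested. Some levels in cells were far below those of the same library's low-UMI barcodes: macrophage-like cells of injured round 1 had Timp3 at 5.57 CPM against 239 CPM in the low-UMI barcodes, and outer cells of injured round 2 had no Timp4 count against 11.0 CPM there. In the Cnmd Grem1 cluster Timp1 was above the low-UMI barcodes in injured round 1 (548 CPM), about level in control round 2 (35.6 CPM) and below in injured round 2 (132 CPM). Timp4 in injured disc matrix cells (10.6 and 8.88 CPM) was also below its level there, while the control round 2 value of 91.4 CPM was above it.

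Among the enzymes that TIMPs inhibit, 8 of 21 MMPs were tested in the disc matrix cells with edgeR and none was called, with 7 of 8 fold changes positive and a median log2 fold change of 0.94 against -0.03 over all genes. In the inner class none of 7 tested was called, 3 were positive and the median was -0.04 against -0.05 over all genes. The summed MMP level was 4296 and 595 CPM in the control and 5678 and 1435 CPM in the injured libraries, farther apart between the rounds than between the groups. Mmp3 (stromelysin 1) was at 3922 and 525 CPM in the control and 5355 and 1057 CPM in the injured libraries. The ratio of TIMP to MMP UMIs was 0.579 and 4.58 in the control and 0.801 and 2.50 in the injured libraries, and overlapped between the groups (exact permutation p = 1). None of 6 ADAM sheddases, 7 ADAMTS proteases or 5 partner proteins tested was called either in that fit, which had no block.

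The smallest p-values among the partner genes in the disc matrix cells were those of Efemp1, Adam12 and Syn3. Efemp1, which encodes the matrix protein fibulin-3 that binds Timp3, was at 54.8 and 55.6 CPM in the control and 2.62 and 7.16 CPM in the injured libraries. It fell in the inner class (log2 fold change -4.70, SE 0.54, edgeR adjusted p = 0.0397), a call lost with the shared barcodes kept (adjusted p = 0.0529) and without the count filter (0.195), and did not pass in all disc matrix cells (-3.39, SE 0.55, adjusted p = 0.149). Adam12, a membrane metalloprotease-disintegrin, was at 0 and 1.65 CPM against 19.8 and 40.8 CPM (4.86, SE 0.84, adjusted p = 0.161). With the round as a block Adam12 (adjusted p = 0.0153) and Efemp1 (adjusted p = 0.0183) passed in the disc matrix cells, as did 1.27% of all genes. In the inner class the block called 7.87% of all genes. Among them were also Mmp10 (higher, 1.66, adjusted p = 0.0112), 1 of 7 MMPs tested, and Syn3 (higher, 1.53, adjusted p = 0.00196). Over all cells the block called 10.1% of all genes. Among these, Mmp10, Mmp14 and Mmp23 (of 8 MMPs tested), Adam12 (of 7 ADAM sheddases) and Syn3 were higher. Efemp1 (of 6 partner proteins) and the membrane-anchored inhibitor Reck were lower, and none of 10 ADAMTS proteases was called.

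Syn3, the synapsin gene around Timp3, was at 18.3 and 32.5 CPM in the control and 102 and 43.1 CPM in the injured disc matrix cells (log2 fold change 1.53, SE 0.52, adjusted p = 0.503). Syn1 and Syn2, around Timp1 and Timp4, had at most 11 and 2 counts in a library. Over the 14 clusters with at least 50 kept cells, Syn3 and Timp3 had a Pearson correlation of 0.928 in log2(CPM + 10). The strand setting of the counting is not given in the sources used here, so reads of Syn3 and Timp3 cannot be told apart with certainty.

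Genes most like each member over the same 14 clusters were named from 2812 genes with a mean of at least 50 CPM, by Pearson correlation. They were Thoc7, Sec61g, Ssr1 and Pkm for Timp1 (0.929 to 0.913), and Plbd2, Scara3, Myoc, Angptl7 and Thra for Timp2 (0.906 to 0.830). For Timp3 they were Insig1, Lysmd3, Tsc22d1, Gt(ROSA)26Sor and Tnfrsf11b (0.927 to 0.900), and for Timp4 Hnrnph1, Tra2a, Fosl2, Grem1 and Ier2 (0.831 to 0.780). Among the members, Timp1 and Timp4 correlated at -0.49, Timp2 and Timp4 at 0.39, Timp1 and Timp3 at 0.26, Timp3 and Timp4 at 0.26, Timp2 and Timp3 at 0.10 and Timp1 and Timp2 at -0.09. The clusters share libraries and differ in depth, so these values are descriptions.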

How the data were processed

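The UMI counts per gene and barcode were deposited as matrices made with Cell Ranger on the mm10 build, per the labels' protocols. Per the file headers, control round 1 comes from Cell Ranger 6.0.0 and lists 444 barcodes, and the other 3 libraries come from Cell Ranger 4 and list between 1194644 and 6794880, barcodes without a UMI included. The strand setting is not given in the sources used here. Total counts were 1114210 and 9891258 in the control and 8943537 and 16972879 in the injured libraries.

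Barcodes with at least 250 genes and genes in at least 5 cells were kept, after the limits in the labels' protocols. Control round 1 cells whose barcode had 0.3 to 3 times as many UMIs (similar), or more, in injured round 1 were dropped. The injured round 1 cells of similar UMIs were dropped with them. Clusters in which over 50% of the control round 1 cells had similar UMIs were dropped whole, with their cells from all libraries. Clusters were made with scanpy 1.11.5 (2000 variable genes, 30 principal components, 20 neighbours, Leiden resolution 1) and named from at least 3 markers. Doublets were not removed in the values reported first.

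UMIs were summed per library and class and tested with edgeR 4.0.16 (quasi-likelihood, TMM, filterByExpr) in R 4.3.3, adjusted over all genes tested. DESeq2 1.42.0, other filters, normalization, clustering, and each library left out were alternatives. Rounds pair libraries because both groups came from the same animals, per the labels, and the deviations of the round 1 libraries from their group means correlated at 0.545 over 9474 genes. The fit with this pairing is given where it changes a call. Only the disc matrix fit without a block was run on simulated counts, which held no round effect. The fits with the block and the class-by-injury fit were not simulated. Exact permutation tests compare 2 against 2 libraries and cannot go below 0.33. Intervals are exact at 95%, a limit for a count of 0 is 3 counts of the total, and both cover counting error only.

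The genes, lists and tests were chosen with earlier results of these data known. Named genes are the 4 members, partner genes called or with the 3 smallest p-values, and the 5 most correlated genes per member, of which 1 is not reported here. Syn3 against Timp3, and the 2 clusters compared within themselves, were chosen after the values were seen. No cell annotation by the authors was used.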

Additional observations from a re-analysis of the deposited data

Results flagged for a closer look

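The injury effect on Timp1 differed between the outer and inner class by the class-by-injury term in edgeR (adjusted p = 0.000176). It rests on 13 control outer cells with 0 Timp1 counts, and it was lost without control round 2 (0.133), injured round 1 (0.0729) or injured round 2 (0.401).

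In barcodes with 10 to 100 UMIs, which enter no test, Timp1 was at 174 CPM in injured round 1 and 280 CPM in injured round 2, above the 35.4 CPM of control round 2. Timp3 was at 239 CPM there in injured round 1, above the 149 CPM of control round 2. The only control library with such barcodes is control round 2, so the spread between controls is unknown.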

How the results depend on the processing

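Of 501 alternative values of the 4 genes, 499 kept the reported direction. Without injured round 1, Timp3 in the outer class turned to -0.57 and Timp1 in the Cnmd Grem1 cluster to -0.10, both uncalled. In the disc matrix cells, Timp1 passed with DESeq2 (2.74), no count filter (2.83), the round as a replicate block (2.69) and without the chemokine, protease and acute-phase clusters (2.83). Timp2 passed with DESeq2 (-1.45) and Timp3 without the filter (1.59). Timp4 passed with DESeq2 (-2.99), no filter (-2.89), the block (-3.04), without the Myoc Angptl7 cluster (-3.33) and without the chemokine, protease and acute-phase clusters (-3.68). Genes called there were 2, and 142 with the block, 150 with DESeq2, 345 without the filter, 4 at resolution 2, and 0 with at least 500 genes per cell or under 10% mitochondrial UMIs. In the inner class Timp1 passed with DESeq2 (2.39) and the block (2.34), Timp2 with the block (-1.44), and Timp3 with DESeq2 (1.63) and the block (1.63). Timp4 there was lost without the filter (-2.98) and with shared barcodes kept (-3.08). Genes called there were 15, and 852 with the block, 120 with DESeq2, and 0 without the filter or with shared barcodes kept. In the outer class they were 7, and 30 with DESeq2, 46 without the filter, 12 under 10% mitochondrial UMIs, and 3 with the highest Scrublet scores left out or at resolution 2. Over all cells Timp1 passed with DESeq2 (2.70), no filter (2.79) and the block (2.65), Timp2 with DESeq2 (-1.42) and the block (-1.48), and Timp3 with the block (1.28). Timp4 passed with DESeq2 (-3.06), no filter (-2.98), the block (-3.12) and shared barcodes kept (-2.95). Genes called over all cells were 2, and 1178 with the block, 144 with DESeq2, 346 without the filter, 14 with shared barcodes kept, and 0 with at least 500 genes or under 10% mitochondrial UMIs. With the shared barcodes kept and the replicate block together, chosen after seeing the data, Timp1 (2.41), Timp2 (-1.45) and Timp4 (-3.003) passed in the disc matrix cells (365 genes called). In the inner class Timp1 (2.04), Timp2 (-1.39), Timp3 (1.34) and Timp4 (-3.08) then passed (520 genes called), and over all cells Timp1 (2.44), Timp2 (-1.37) and Timp4 (-2.96; 736 genes called). The cause of these changes was not tested.

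With each library left out in turn, the disc log2 fold changes ran from 2.50 to 2.97 for Timp1, -1.57 to -1.39 for Timp2, 0.95 to 1.85 for Timp3 and -3.13 to -2.86 for Timp4, with 88 to 244 genes called. In the inner class they ran from 2.14 to 2.58, -1.49 to -1.38, 1.22 to 2.11 and -3.33 to -2.92, with 52 to 204 genes called. In the outer class the adjusted p of Timp1 ran from 4.11e-07 to 0.00278, Timp2 from -1.76 to -0.81 and Timp3 from -0.57 to 0.91, with 11 to 74 genes called. Over all cells they ran from 2.41 to 2.90, -1.57 to -1.35, 0.87 to 1.70 and -3.18 to -3.002, with 121 to 243 genes called. In the Cnmd Grem1 cluster Timp1 ran from -0.10 to 3.10. The class-by-injury term ran from 0.00174 to 0.401 (adjusted p) for Timp1, 0.12 to 0.78 for Timp2 and -1.87 to -0.19 for Timp3, with 2 to 87 genes called. The difference in the share of TIMP UMIs ran from 18.3 to 35.2 percentage points for Timp1, -46.9 to -41.7 for Timp2, 9.89 to 31.1 for Timp3 and -3.11 to -2.74 for Timp4. The lone library of an arm is assumed to vary like the others, and these fits have 1 residual degree of freedom, so their lower p-values are no sign of stability. The class-by-injury term was not fitted with DESeq2 or the block.

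Depth limits Timp4, with 6 to 9 counts per library in the Myoc Angptl7 cluster, and control outer, vascular and macrophage-like cells, of which there were at most 9 per library.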
